A study of Drosophila melanogaster with 4 samples.

Results

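Non-coding RNA genes were examined for recovery with Sister of Sex-lethal (Ssx), a relative of Sex-lethal, the switch protein of sex determination. RNA crosslinked to protein was isolated by iCLIP (individual-nucleotide resolution UV crosslinking and immunoprecipitation) from SL2 cells, an established male embryonic line of Drosophila melanogaster. Per the labels, 2 libraries were made with a polyclonal rabbit antibody against Ssx and 2 with rabbit IgG as the control, with no other treatment or genotype named and no statement that the libraries of a group were separate cultures. The authors deposited the statistics of the comparison between these groups in 4 tables, one each for introns, coding sequence (CDS) and the UTRs of either end. Members were all rows whose gene name is CR followed by digits or starts with snoRNA:, snRNA:, tRNA:, scaRNA:, lncRNA: or mir-. They comprised 146 of 17175 intervals and carried 90 of 4841 gene names. All 146 lay in the intron table, which holds 8796 intervals of 2946 genes, and none in the CDS or UTR tables. Of the gene names, 87 were of the CR type and 3 were tRNA genes. The snoRNA:, snRNA:, scaRNA:, lncRNA: and mir- prefixes matched no row.

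Long non-coding RNAs are transcribed and spliced like mRNAs but encode no known protein, and their introns can host small RNAs such as snoRNAs, which guide chemical modification of ribosomal RNA, and microRNAs, which repress mRNAs. Antisense RNAs run on the strand opposite to another gene. A few tRNA genes have a short intron that a dedicated endonuclease removes. Proteins of the Sex-lethal family bind uridine-rich RNA, and introns and UTRs of nascent transcripts are among their known targets.

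The label "CR" covers more than non-coding RNA. Against the RefSeq annotation of Release 6, 89 of the 90 names matched a gene, and 145 of 145 intervals of the matched genes lay inside it. By RefSeq class 56 genes were lncRNAs, 14 antisense RNAs, 15 pseudogenes, 3 tRNAs and 1 another ncRNA, a hairpin RNA. CR45194 had no match. The X chromosome carried 31 of the 90 genes (34.4%), against 20.7% of the other genes in the intron table.

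Coverage was low. Each deposited mean is a sum of whole reads divided by size factors, and the whole reads of 4 libraries could be solved from it for every member interval. These libraries carry no names in the tables and were assigned to no group. They are called a to d here, from the largest to the smallest size factor. Over non-overlapping intronic intervals they held 70356, 58330, 15012 and 6040 reads, and the members' share was 1721, 1512, 699 and 220 reads (2.77% of all intronic reads). The median member interval held 6 reads over the 4 libraries, as did the other intronic intervals. Exactly 2 reads were found in 34 member intervals, 2 to 9 in 90 (61.6%) and 50 or more in 20. With the scaling, 1 read counted as 0.384 normalized reads in library a, 0.53 in b, 1.82 in c and 2.49 in d. The genes with the most reads, CR44999 and CR44997, together held 46.9% of the members' reads.

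The question was whether introns of these genes were recovered with Ssx above, or below, the IgG background. No exonic interval of a member is listed, so exons and RNAs without an intron could not be assessed. The tables do not write out the direction of the fold change. Positive values are taken to mean more reads in the Ssx IP, the likely reading since the deposited workbook is titled as one of Ssx-bound transcripts. Of 90 genes, 20 had at least 1 interval with an adjusted p (32 intervals), which the intron table gives only to intervals with a mean of at least 5.65 normalized reads. At an adjusted p under 0.05 (DESeq2, by the authors), 0 of these 20 genes were higher in the Ssx IP and 1, CR45082, was lower. Among all tested intronic genes, 4.73% were called higher and 6.9% lower, so the members' counts lie near that background. By interval the shares were 3.62% higher and 5.57% lower, and 0 and 1 of the 32 member intervals. Unadjusted DESeq2 p-values under 0.05 were listed for 3 member intervals that were higher and 4 that were lower, out of 146, beside 2.13% and 1.58% of all intronic intervals. The other 70 genes had no adjusted p and could not be called.

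CR45082 is a lncRNA gene on the X chromosome. Its interval (X, 21497122 to 21519851, minus strand, dm6) held 41, 5, 295 and 48 reads in libraries a to d, or 15.8, 2.65, 535.6 and 119.4 after scaling. Library c thus contributed 75.8% of the reads and 79.5% of the normalized signal. Its mean was 168.3 normalized reads, and the authors' deposited table gives a log2 fold change of -4.78 ± 0.82 (SE, adjusted p = 2.96e-06 by DESeq2). This was the smallest p in the intron table. In that table all 57 lower calls had over 50% of their normalized signal in 1 library, with library c the highest in 53 and library d in 4. The same held for 23 of the 37 higher calls. Over all 37 of them, library b was the highest in 31 and library a in 6. The part of library c in the call was not tested, because the solved libraries carry no names and were assigned to no group.

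Nearly all reads of the CR45082 intron fell inside the coding sequence of another gene. The intron contains on the same strand the CDS interval of Cyp6t1 (X, 21517549 to 21519138), a gene of the cytochrome P450 family of oxidative enzymes. This CDS interval is 1590 bases long, or 7.0% of the intron, and held 384 reads, against 389 in the whole intron (98.7%). Sorted by size, the reads of its 4 libraries were 294, 47, 40 and 3, beside 295, 48, 41 and 5 in the intron. That leaves 5 reads in the other bases of the intron, a density of 0.237 reads per kb against 241.5 in the Cyp6t1 CDS. The CDS interval had the highest mean of the CDS table, 80.2 normalized reads. There, the authors' deposited table gives a log2 fold change of -1.22 ± 1.52 and no call (adjusted p = 0.855 by DESeq2). No CDS interval of any gene was called: 0 of 1921 passed in either direction, and 0 had an unadjusted DESeq2 p under 0.05. The called value in the intron table and the uncalled value in the CDS table thus rest on almost the same reads, scaled and fitted within each table. In the library with the most reads, 1 read counted as 1.82 normalized reads in the intron table and as 0.598 in the CDS table. Reads of CR45082 and Cyp6t1 cannot be told apart in the shared range.

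**Figure D1:**
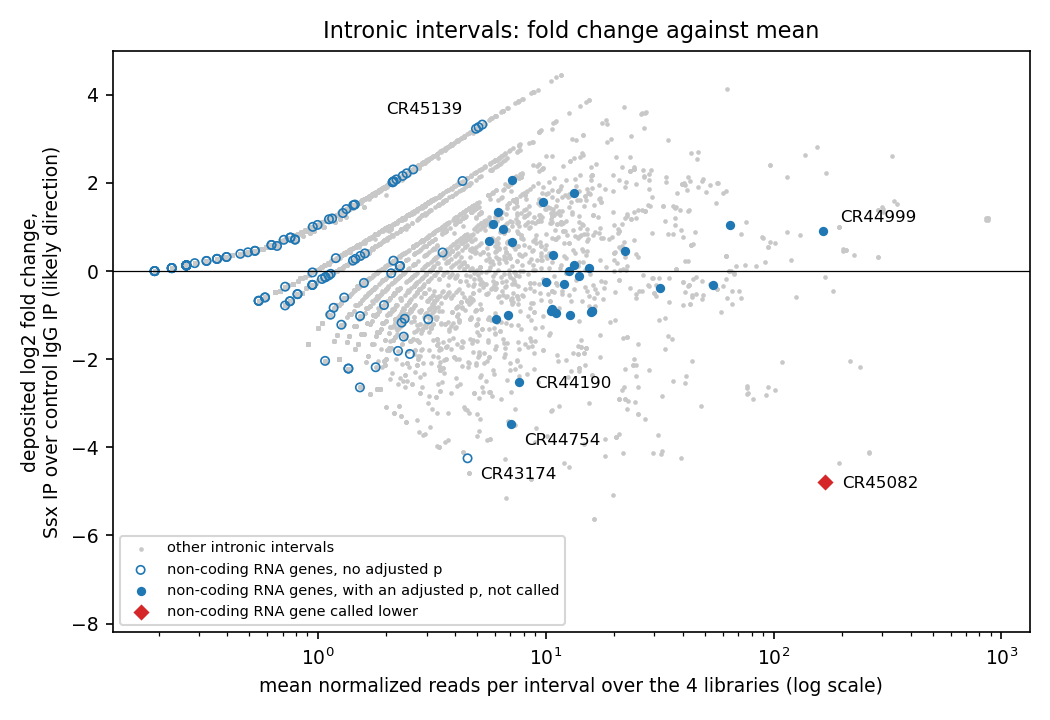
Deposited log2 fold change (y axis) against the mean normalized reads per interval (x axis, log scale) for the 8796 intronic intervals, with the 146 intervals of non-coding RNA genes in colour. CR45082 is the 1 called member, at -4.78, and CR45139, at 3.32, is the highest member.

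The next members by p had few reads, and most of them in 1 library. The lncRNA gene CR43174 (3L, 17934346 to 17945336, plus strand) held 0, 0, 10 and 0 reads in libraries a to d. The authors' deposited table lists it at a log2 fold change of -4.25 ± 1.55 at an unadjusted p of 0.00624 (DESeq2), with no adjusted p. The lncRNA gene CR44754 (X, 16906470 to 16912673, minus strand) held 0, 2, 15 and 0 reads. For it the authors' deposited table gives -3.47 ± 1.41 (adjusted p = 0.0908 by DESeq2), above the threshold. Neither interval shares bases with a row of another gene on its strand. Reads were spread more evenly over CR44190, a lncRNA gene with a 352-base interval on 2L (19272406 to 19272757, minus strand), with 2, 5, 8 and 5 reads. It is listed in the authors' deposited table at -2.51 ± 1.2 (adjusted p = 0.166 by DESeq2).

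On the positive side the leading member was CR45139, an antisense RNA gene on 2R (3943883 to 3949321, plus strand). It held 19, 26, 0 and 0 reads, so that libraries c and d had none. The authors' deposited table gives it a log2 fold change of 3.32 ± 1.49 at an unadjusted DESeq2 p of 0.0259, and the mean of 5.27 normalized reads was just under the level that receives an adjusted p. The 3 intervals with an unadjusted p under 0.05 all belong to this gene and are nested isoforms with 42 to 45 reads, hence 1 observation. Reads in libraries a and b alone were also found in intervals of the lncRNA genes CR42862 (8 and 14 reads) and CR43857 (10 and 9), which were named after their values were seen. These libraries held 70356 and 58330 of the 149738 reads over non-overlapping intronic intervals. Other members had the same split, for example CR44030 (12 and 8) and CR43957 (7 and 11). The log2 fold changes of these CR42862 and CR43857 intervals were 2.31 ± 1.58 and 2.04 ± 1.6 in the authors' deposited table, each within 2 standard errors of 0. Another CR42862 interval held 6 and 1 reads in a and b alone, and a nested CR43857 interval 7 and 5. Of the CR42862 interval at 2.31, 79.5% is shared with a 3' UTR interval of CG33229. A further CR42862 interval held 6, 5, 2 and 0 reads, at 0.24 ± 1.56 in the authors' deposited table. Among the tested intervals the highest value was that of the lncRNA gene CR45668 (X, 5885861 to 5899054, minus strand), which held 16, 35, 2 and 0 reads. It is listed at 2.06 ± 1.32 in the authors' deposited table (adjusted p = 0.31 by DESeq2). CR45939, a lncRNA gene that overlaps the nuclear receptor gene ftz-f1, followed CR43963 with 49, 22, 2 and 2 reads. The authors' deposited table has it at 1.57 ± 1.144 (adjusted p = 0.394 by DESeq2). None of these values was called.

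**Figure D2:**
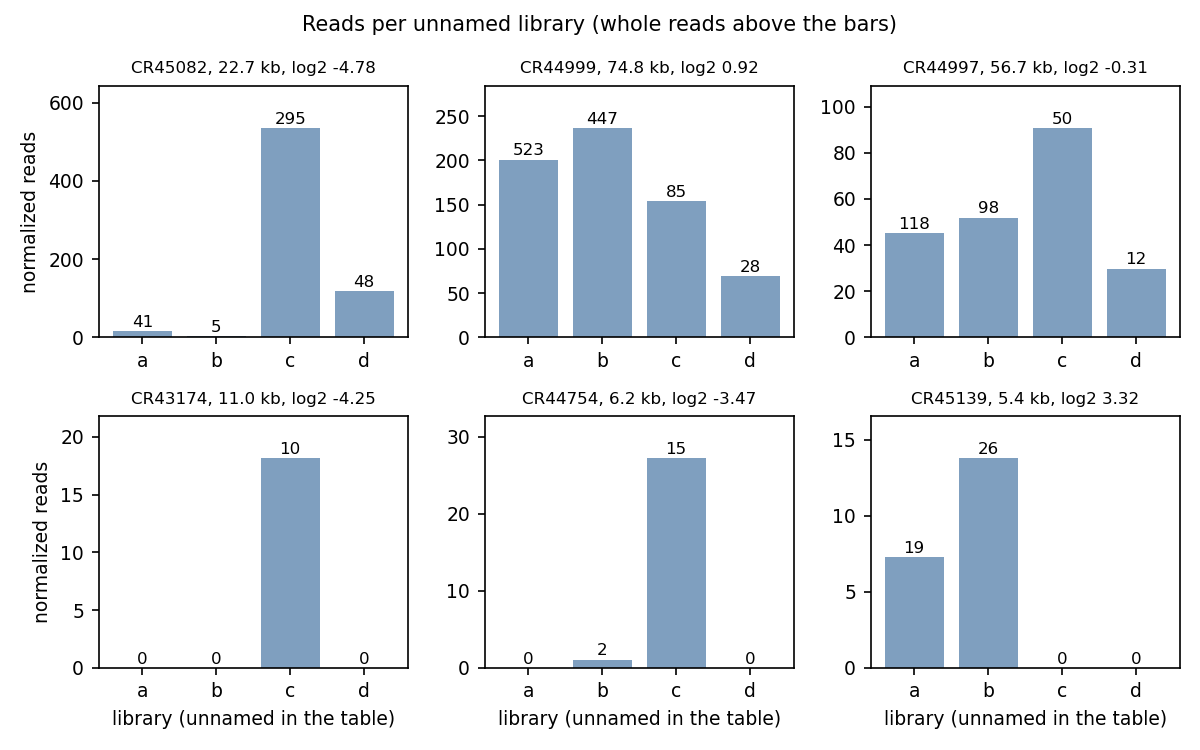
Normalized reads (bars, y axis from 0) and whole reads (numbers) of 6 members in the unnamed libraries a to d, each for the gene's interval with the highest mean. CR45082, CR43174 and CR44754 are highest in library c, CR45139 has no reads in c and d, and CR44999 and CR44997 have reads in all 4.

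The deepest member by reads was CR44999, a lncRNA gene on the X that overlaps dm, the gene of the Myc transcription factor. Its first long intron (X, 3376234 to 3451009, plus strand) held 523, 447, 85 and 28 reads, and the next one (3451066 to 3522677) held 231, 164, 17 and 21. After scaling, the first ranged from 69.7 to 236.7 normalized reads over the libraries and the next from 30.9 to 88.7. The values were 0.92 ± 0.64 and 1.04 ± 0.69 in the authors' deposited table, and neither was called (adjusted p = 0.356 and 0.334 by DESeq2). The first intron contains the 3' UTR and an exon of CDS of dm. Those dm intervals held 686 of its 1083 reads (63.3%) on 9.78% of its length. The dm 3' UTR interval (X, 3385313 to 3391697), with 676 reads, was called higher in its own authors' deposited table, at 3.03 ± 0.59 (adjusted p = 3.83e-05 by DESeq2). Outside the dm exons, in a part that includes 8153 bases of a dm intron with 44 reads, the density was 5.88 reads per kb. In the next intron, where the CG10801 CDS and the CG10803 3' UTR account for 22 of 433 reads, it was 6.0 reads per kb.

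Another overlap involves the ribosomal protein gene RpS6. CR33222, a pseudogene by RefSeq class that was named after its values were seen, has an interval at X, 7898927 to 7901242 on the minus strand with 28, 14, 3 and 1 reads. Inside it lie CDS and 3' UTR intervals of RpS6 that held 26 of its 46 reads. The remaining 20 match RpS6 introns inside it, which held 2 and 18 reads, so no read can be given to CR33222 alone. It also shares 322 bases with a 5' UTR interval of RpS6, which held 164 reads, more than all of CR33222. The authors' deposited table for 5' UTRs lists that RpS6 interval at 5.45 ± 1.38 (adjusted p = 0.0072 by DESeq2), a higher call. The value of CR33222 itself was 0.95 ± 1.25 in the authors' deposited table for introns (adjusted p = 0.677 by DESeq2).

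Shared ranges were common. On the same strand, 34 of the 146 member intervals (23.3%), from 18 genes, shared at least 1 base with a row of another gene name, and so did 15 of the 32 with an adjusted p (46.9%). The 24 partner genes were all outside the member list. In 24 intervals the shared part covered at least 50% of the member. Reads in such a range cannot be told apart by gene. Identical values in the member and its partner were found, for example, for CR45109 in an intron of 2mit (51 reads), CR44357 in an intron of CG1677 (27 reads) and the short intron of CR44999 in an intron of dm (13 reads). The Smr intron around CR43963, an interval with 102 reads and 1.78 ± 1.05 in the authors' deposited table (adjusted p = 0.268 by DESeq2), held 113 reads. Called intervals of another gene shared bases with 3 member intervals, those of CR44999 with dm, CR33222 with RpS6 and the tRNA intron described below with CG42321. Counting either strand, 66 member intervals overlapped another gene. The measured reads differ by strand. Of 341 intronic intervals that contain an interval of another gene on the same strand, 0 held fewer reads than that interval, whereas 36 of 173 did so for one on the opposite strand.

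**Figure D3:**
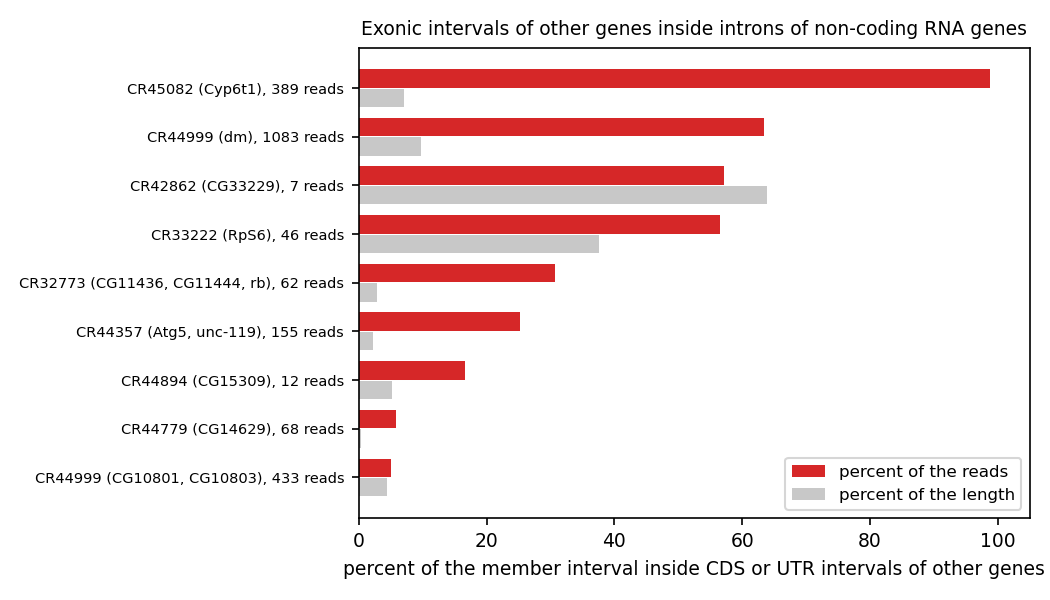
Percent of the reads (red) and of the length (grey) of member introns that lie in CDS or UTR intervals of other genes on the same strand, 1 bar pair per member and set of contained genes. The Cyp6t1 CDS holds 98.7% of the CR45082 reads on 7.0% of its length, and the dm exons 63.3% of those of CR44999 on 9.78%.

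Long introns of X-linked lncRNA genes made up most of the intervals with an adjusted p. Of the 32, 26 were on the X, and their median length was 41145 bases, against 15942 for the other tested introns. The median log2 fold change of the 32 was -0.18, with 15 above 0 and 17 below, while the median of the other tested intronic intervals was 0.74. Within the 32, the median was -0.25 for the 15 that share bases with another gene on the same strand and 0.007 for the 17 that do not. On the X alone the medians were -0.15 for 26 member intervals and 1.10 for the 244 others. These are descriptions, and isoform intervals of 1 gene share reads. Over all 146 members the median was 0.13, against 0.18 for the other intronic intervals. By class the medians were 0.07 for 97 lncRNA intervals, 0.65 for 25 antisense RNA intervals, -0.14 for 19 pseudogene intervals and -0.67 for the 3 tRNA introns. Only 2 of the antisense RNA intervals, both of CR44894, had an adjusted p. They held 40 and 45 reads and overlap each other, and the authors' deposited table lists them at 1.07 ± 1.29 and 0.65 ± 1.2.

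Several genes had more than 1 long intron, and differences between introns of a gene were not tested. CR44997 has 3 of them. Its last (X, 22740621 to 22797278, plus strand) held 118, 98, 50 and 12 reads, the middle one 57, 57, 12 and 6, and the first 0, 3, 3 and 1. The authors' deposited table gives them log2 fold changes of -0.31 ± 0.74, 0.45 ± 0.87 and -1.49 ± 1.56, in the same order. CR44357, a gene of very long introns, had values from -0.998 ± 1.19 to 0.59 ± 1.53 in the authors' deposited table, with 54, 64, 30 and 7 reads in its deepest interval (X, 7278528 to 7358660, minus strand). An intron of CG1677 covers 92.2% of that interval and held 154 reads, against 155 in the interval, so the 2 genes cannot be told apart there. In that interval 39 of 155 reads lay in exonic intervals of Atg5, a gene of autophagy, and of unc-119. CR44779, with 3 nested isoform intervals of 67 or 68 reads (34, 14 or 15, 7 and 12), had -0.93 ± 0.96 and -0.90 ± 0.96 in the authors' deposited table, and 4 of those reads lay in the 3' UTR of CG14629. Further genes were picked after their values were seen because their tested introns lay on either side of 0. CR44833 had introns with 14, 26, 3 and 0 reads and with 11, 19, 7 and 7 reads. They stood at 1.34 ± 1.33 and -0.95 ± 1.05 in the authors' deposited table, and neither was called (adjusted p = 0.571 and 0.636 by DESeq2). In CR32773 the intron of 102499 bases, where 19 of 62 reads lay in exonic intervals of rb, CG11436 and CG11444, stood at 0.36 ± 1.07 in the authors' deposited table. Its neighbours of 66350 and 48200 bases, with 50 and 23 reads, stood at -0.997 ± 1.04 and -1.08 ± 1.23 in the same authors' deposited table.

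The deposited errors limit what these values can exclude. The 95% interval of the log2 fold change, computed from the deposited standard error, included 0 in 29 of the 32 tested intervals. It lay between -2 and 2 in only 3, those of CR44997 (-1.77 to 1.15), CR44886 (-1.80 to 1.94) and CR44357 (-1.96 to 1.98). CR44886 was named after its values were seen. It lay between -1 and 1 in 0. The smallest higher call of the intron table was at 2.13, and 18 of the 32 member intervals had an upper bound under 2.

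**Figure D4:**
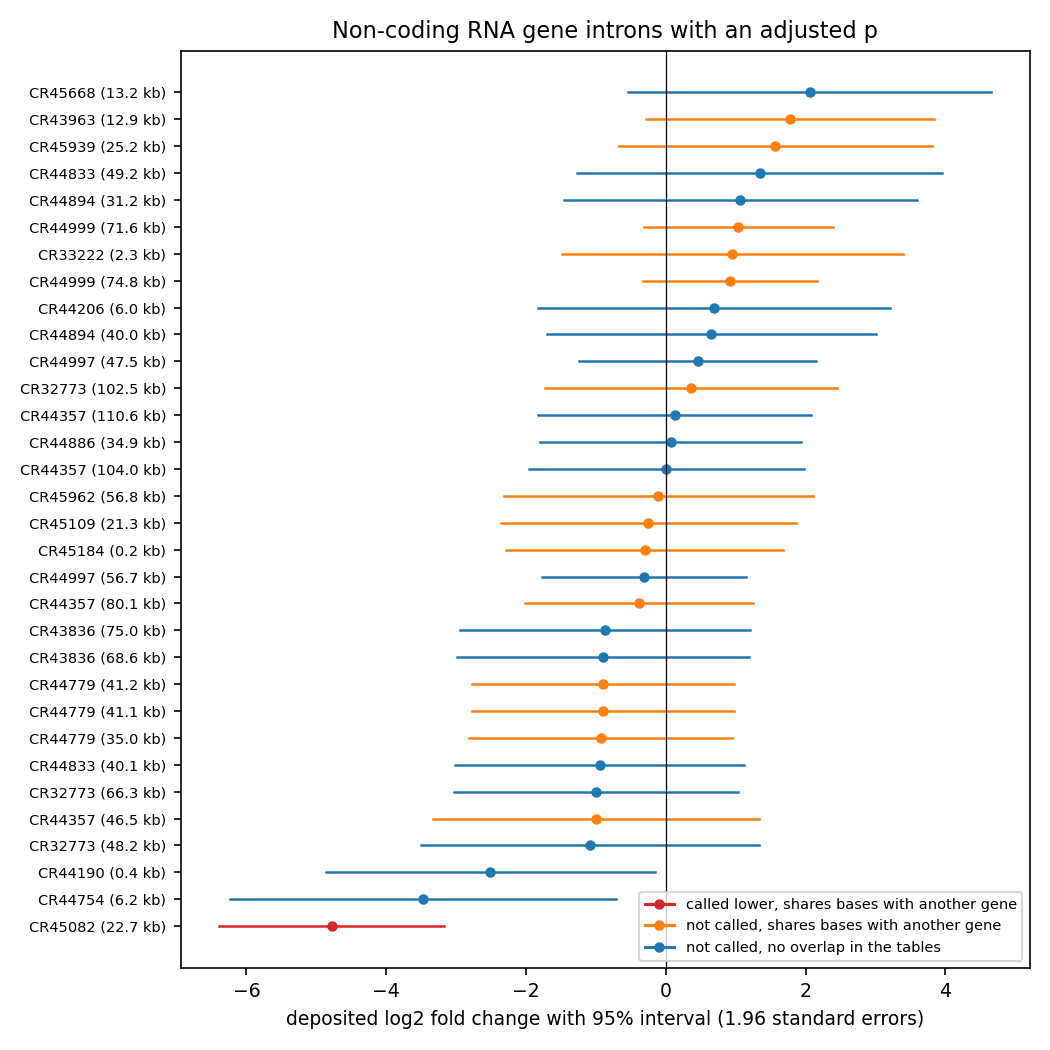
Deposited log2 fold change (points) with its 95% interval (lines) for the 32 member intervals that have an adjusted p, with the interval length in kb beside the gene name. The CR45082 interval is the 1 called, 29 of the lines cross 0, and orange marks intervals that share bases with another gene on the same strand.

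Small RNA genes lay inside 11 member intervals of 7 genes in RefSeq, which gives no strand here. These genes were picked by that criterion and not by their values. CR45184 is a host of snoRNAs, and its 4 introns are also listed, with identical values, as introns of CG13900. They contain Me28S-C788b, Me28S-C788a, Me28S-G3113b and Me28S-G3113a, named for the 28S ribosomal RNA sites they modify, which take up 38.9%, 38.7%, 47.7% and 44.7% of these introns of 176 to 186 bases. The intron with Me28S-C788a (3L, 827237 to 827422, minus strand) held 32, 17, 8 and 5 reads. Per length this was the highest level of any member, 64.9 normalized reads per kb against a median of 0.434. Its log2 fold change was -0.30 ± 1.01 in the authors' deposited table (adjusted p = 0.886 by DESeq2). The other 3 introns held 21, 6 and 8 reads, with 0.42 ± 1.47, -1.81 ± 1.57 and 1.004 ± 1.6 in the authors' deposited table, in the order of the snoRNAs above. The 95% interval of each of the 4 values included 0. The snoRNA Or-aca2 lies in the CR33222 interval.

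MicroRNA genes lay in introns of 4 members. The mir-279 and mir-996 genes lie in CR31044 (8 reads), mir-252 in the antisense RNA CR17025 (3 reads), mir-133 and mir-288 in CR44909 (10 reads) and mir-31b in CR43836 (45 reads in its longer interval). In the authors' deposited table these had log2 fold changes of -0.77 ± 1.58, -2.64 ± 1.62, -0.05 ± 1.56 and -0.87 ± 1.06. A tRNA gene, Gln-TTG-2-1, lies in the first long CR44999 intron.

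The 3 tRNA members are introns of 21 to 38 bases. That of tRNA:CR32525 (RefSeq Tyr-GTA-2-1, X, 21304750 to 21304784, plus strand) held 3 reads, all in library c, and that of tRNA:Y1:85Aa (Tyr-GTA-1-8, 3R, 8669117 to 8669137, minus strand) held 1 read each in a and c. That of tRNA:L3:49Fa (Leu-CAA-2-1, 2R, 13430740 to 13430777, minus strand) held 2 reads in library a. Their values were -2.21 ± 1.6, -0.67 ± 1.5 and 0.00 ± 1.49 in the authors' deposited table, with no adjusted p. The last tRNA gene sits in an intron of CG42321 that was called lower at -4.12 ± 0.73 in the authors' deposited table (adjusted p = 2.96e-06 by DESeq2) from 639 reads, of which at most 2 can lie in the tRNA intron.

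Pseudogenes supplied 15 genes and 19 intervals, of which only that of CR33222 had an adjusted p. A row of 6 X-linked pseudogenes, CR43211 to CR43216, has introns of 637 bases spaced exactly 2093 bases apart, with 2 to 5 reads each and log2 fold changes between -0.68 and -0.14 in the authors' deposited table. The intervals of CR43957 and CR44030, antisense RNA genes on chromosome 4, are both 2557 bases long and held 7 and 11 reads, and 12 and 8 reads, in libraries a and b. No sequences were compared, so whether reads are shared between intervals of equal length was not tested, and their counts are uncertain.

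Other non-coding genes, outside the name rule, were taken from a list of 31 names. Of these, 14 were present, all in the intron table, with 69 intervals and 5 tested genes. None was called in either direction (DESeq2 by the authors). Among all tested intronic genes 4.73% were called higher and 6.9% lower, so 0 of 5 says little. The median log2 fold change was 0.18, as over all intronic intervals. That is the value listed for intervals with 3 reads in library a alone, so the match says little. An unadjusted DESeq2 p under 0.05 was listed for 2 of the 69 intervals, beside 2.13% higher and 1.58% lower among all intronic intervals. The 2 intervals belong to Uhg3, a snoRNA host, with 2.99 ± 1.19 and 2.60 ± 1.23 in the authors' deposited table (adjusted p = 0.0888 and 0.161 by DESeq2). They held 48, 57, 2 and 0 reads and 40, 40, 2 and 0 reads. The intervals with the smallest p of the snoRNA hosts Uhg1 and Uhg4 had 2.31 ± 1.42 and 1.97 ± 1.48 in the authors' deposited table (unadjusted DESeq2 p = 0.104 and 0.183). The tested Uhg4 intervals, with 34 and 72 reads, stood at -1.02 ± 1.16 and 0.30 ± 1.04 in the authors' deposited table, and the tested Uhg7 interval, with 28 reads, at -0.38 ± 1.27. The tested Uhg1 interval, with 52 reads, stood at 1.87 ± 1.29 in the authors' deposited table, and that of bxd, with 33 reads, at -0.45 ± 1.24. The intron of Hsromega, a heat-shock-inducible nuclear RNA, had -2.50 ± 1.29 in the authors' deposited table (unadjusted DESeq2 p = 0.0532) from 3, 2, 4 and 5 reads. The longest interval of roX2, an RNA of the male dosage compensation complex, held 7, 10, 0 and 0 reads and had 1.93 ± 1.6 in the authors' deposited table (unadjusted DESeq2 p = 0.229). The related roX1, also on the list, had no interval in any of the 4 tables. As a male marker, the Y-linked gene kl-3 had 7 intronic intervals, with 121 reads in the deepest. The dosage compensation gene msl-2 was in all 4 tables, with 2 to 44 reads in its deepest interval of each.

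Proteins that make or carry small RNAs were listed under 21 of 36 names, with 6 tested genes in CDS (Nop56, Nop60B, nop5, AGO1, Gem3 and Lsm10), 1 in introns (Nop60B) and 1 in 3' UTRs (AGO1). The CDS table gives an adjusted p to all of its 1921 intervals, however few their reads. There Gem3, Lsm10 and nop5 held 2 reads each, Nop60B 3, Nop56 5 and AGO1 116, of which 102 were in 1 library. None was called in any table, and 0 of their 54 intervals had an unadjusted DESeq2 p under 0.05, against 2.44% higher and 0.862% lower among all intervals of the 4 tables. In CDS the count of 0 is that of the whole table, as given above, while 36.5% of the tested 3' UTR genes were called higher and 1.12% lower (33.2% and 0.692% of the tested intervals). Of Nop60B, the gene of the enzyme that forms pseudouridine in ribosomal RNA, the intron with the smallest p held 4 reads, all in library c, with -2.68 ± 1.62 in the authors' deposited table (unadjusted DESeq2 p = 0.0977). The 3' UTR of AGO1, the microRNA effector, had 0.52 ± 1.17 (adjusted p = 0.789 by DESeq2) in the authors' deposited table.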

How the data were processed

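Per the submitters' processing notes, cutadapt 1.6, Bowtie 0.12.7, DESeq2 1.14.1 and DESeq were used with the builds BDGP6 and dm6. How reads were counted, and with which annotation, duplicate and strand settings, is not stated in them. Per the file headers, the deposited mean is a signal, the mean of read counts normalized over the 4 libraries. Fold changes with standard errors (both log2), the test statistic (a score), the p-value and the adjusted p-value were deposited by the authors and used as they stand. No column holds a value of 1 library, so no test across samples was run, and values carry no SD or n. Since separate cultures are not stated, the p-values cover library-to-library spread that may be technical.

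Whole reads per unnamed library were solved from the deposited means within a relative tolerance of 1e-14. The solution was unique for 8795 of 8796 intronic intervals and for all of the other tables, and the solver was tested on simulated data. No column or label names these libraries, and none was assigned to a sample or group from its values. Their order may differ between tables, and it does so for the reads of CR45082 and Cyp6t1. Overlaps used at least 1 shared base on the same strand. Names and classes were matched to RefSeq (Release 6). Intervals of 95% are 1.96 standard errors either side. No p-value was adjusted over the members. A planned search for U-rich runs and the printing of sequences were not done, since no genome was used here.

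The members, lists and tests were chosen with earlier results of these data known. Named are the called members, the 5 with the smallest p and the 5 with the highest mean, those leading their class of names by mean (3) or by test statistic (2 in each direction), their partners and the genes of both lists. Further members were named for a small RNA inside them, for intervals of equal length, or after their values were seen. Python 3.11.15, pandas 2.3.3, scipy 1.17.1 and numba were used.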

Additional observations from a re-analysis of the deposited data

How the results depend on the processing

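The call of CR45082 was kept when the Benjamini-Hochberg adjustment was redone over those intronic intervals that have one, all listed intronic intervals, or the 4 tables together, with adjusted p-values of 3.71e-06 to 5.77e-05. At an adjusted p under 0.1, 2 of the 20 tested member genes were called, with CR44754 added. The share of all tested intronic genes was not counted at 0.1, so these 2 cannot be set against a background. With only members that share no bases with another gene on the same strand, 0 were called, because that leaves out CR45082. Under the opposite reading of the sign, the 1 called gene would be higher in the Ssx IP, at a log2 fold change of 4.78. The median log2 fold change of the members was -0.18 over the 32 tested intervals, -0.30 over the 21 with a mean of at least 10 and 0.068 with 1 interval per gene, and the cause of these shifts was not tested. Counting either strand raised the overlapping intervals from 34 to 66, since more rows then qualify, and the other settings gave 24 to 34.

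No paired analysis was possible because no column holds the values of a named library, and for the same reason leaving out replicates and running another normalization or tool were not done. Runs of U were not searched. With 2 to 9 reads in 61.6% of the member intervals, a missing call says little about binding. Only introns of these genes are listed, so binding to their exons was not assessed.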
